A study of Homo sapiens with 6 samples.

Results

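The proteasome genes were followed in SK-N-AS neuroblastoma cells with and without induced MYCN. Members were the protein-coding genes whose whole symbol is PSM, a letter from A to G and a number, leaving out PSMB8 and PSMB9, which gave 46 of the 19928 protein-coding genes among 60651 gene identifiers. The rule uses the symbol and no measured value, and the members were divided by place in the particle: 8 in the core alpha ring, 9 in the core beta ring, 9 in the base, 8 in the lid, 3 base assembly chaperones, 5 activators and inhibitor, and 4 core assembly chaperones. The cells carry MYCN under a tetracycline repressor (TR) system and were grown as single clones under G418 and Blasticidin. Ribosomal RNA was removed and the remaining total RNA sequenced after 120 h, from 3 cultures given tetracyclin (MYCN-induced) and 3 cultures labelled ETOH (control). The clone, its integrated plasmids and the selection antibiotics are common to both groups, and an effect of tetracyclin itself cannot be told apart from that of MYCN. Total counts per library ran from 64500589 to 102249336.

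The proteasome degrades proteins tagged with ubiquitin. Its core is a barrel of stacked rings in which outer rings of alpha subunits gate the entry and inner rings of beta subunits hold the proteolytic sites, and the regulatory particle on its end is made of a base, whose ATPases unfold the substrate, and a lid, which removes the ubiquitin. Dedicated chaperones build the core and the base, and the subunits of the mature particle are known to be transcribed together, with NFE2L1 raising them when degradation fails. MYCN drives growth and protein synthesis in neuroblastoma.

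MYCN was at 30.3, 35.5 and 32.4 CPM in control replicates 1, 2 and 3 and at 211, 221 and 199 CPM in the MYCN-induced replicates, where CPM is a gene's count scaled to the TMM-normalized size of its library. It was 6.43-fold higher (log2 fold change 2.68 ± 0.08 SE, edgeR adjusted p = 4.2e-05), in accordance with the labels. MYCN-induced replicate 3 lay apart from all other libraries on the first principal component (69.1, against 14.4 and 13.1 in the other induced libraries and -40.3 to -25.9 in the controls). The neuroblastoma markers HAND2 and GATA3 were at 99.9 CPM or more in every library, while STMN2 was near 0 and TH reached no more than 1.58 CPM. Markers also moved with the induction. CHGA, a neuroendocrine granule protein, fell by 1.21 on the log2 scale (edgeR adjusted p = 0.0492). The mesenchymal marker FN1 fell by 0.71 (edgeR adjusted p = 0.033). Each was the 1 call of its list (of 9 and 5 tested), against 2.38% of all genes called lower. Their part in the proteasome values was not tested. The CHGA call was lost without control replicates 1 and 3 and MYCN-induced replicates 1 and 2 (adjusted p from 0.129 to 0.158), and the FN1 call without each library other than MYCN-induced replicate 3 (adjusted p from 0.0593 to 0.168). Without MYCN-induced replicate 3, 4 of the 9 neuroblastoma markers were called lower, against 4.44% of all genes in that fit. Among them were ISL1 and DBH, which DESeq2 also called lower on all libraries (adjusted p = 0.0057 and 0.040, against 4.12% of all genes). FN1 went against most of its list, in which 4 of the 5 tested genes lay above 0, with a median log2 fold change of 0.20. DESeq2 called VIM higher on all libraries (adjusted p = 0.0084) and FN1 lower, against 3.11% and 4.12% of all genes. In edgeR without MYCN-induced replicate 3, VIM, PRRX1 and YAP1 were called higher (adjusted p from 0.0254 to 0.0366) and FN1 lower. The shares of all genes in that fit were 3.68% and 4.44%. Of the markers of blood, endothelium, epithelium and Schwann cells, 5 of 9 passed the count filter, CD3E was at 0 in every library, and their summed level ran from 7.01 to 8.13 TPM (counts per exon length, scaled to the same total in each library) in the controls and from 6.45 to 8.74 TPM in the induced libraries.

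Of the members, 1 was called higher and none was called lower, and that call was not kept in several alternative settings given below. PSMG1, a chaperone that helps to build the alpha ring, was the only proteasome gene past an adjusted p of 0.05 in edgeR, where 1 of 44 tested members was called higher and 0 were called lower. Of all 29086 genes tested, 1.02% were called higher and 2.38% lower. DESeq2 also called 1 member higher and 0 lower, against 3.11% and 4.12% of all genes. Without adjustment, 8 members had an edgeR p under 0.05 in the higher direction and 2, PSMB4 and PSMB5, in the lower, against a background of 8.13% and 10.6%. The 8 were PSMG1, PSMG2, PSMG3, PSMC1, PSMC2, PSMC5, PSMD8 and PSMD14, which belong to the core assembly chaperones, the base and the lid.

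The members nevertheless leaned to one side in small steps. Of the 44 tested, 36 had a log2 fold change above 0 and 8 below, with a median of 0.08, while the median over all tested genes was -0.0004 and 49.9% of them lay above 0. Among protein-coding genes the median was 0.03 and 55.2% lay above 0. In 19 members (43.2%) all 3 induced libraries lay above all 3 controls in CPM, against 11.5% of all tested genes and 16.0% of the protein-coding ones. This depended on the scaling, since of these 19 only PSMG3, PSMD8 and PSMD14 kept it in TPM. In 2 members, PSMB4 and PSMB5, all 3 induced libraries lay below the controls in CPM, against 14.7% of all tested genes. These counts and medians are a description, since subunits of 1 particle in the same 6 libraries are not independent of each other. CPM are shares of a library, so fewer cells of a kind and less of an RNA per cell cannot be told apart.

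The steps were narrow as well as small. Fold changes of the tested members ran from 0.860 (PSMC4) to 1.35 (PSMG3), and the 95% interval lay within 1.5-fold either way in 42 of 44, the exceptions being PSMG1 and PSMG3. The same was so for 48.2% of all tested genes. PSMA8, the alpha subunit of the testis, had 0 counts in every library, which allows up to 0.0287 to 0.0462 CPM depending on the library. PSMB11, the catalytic subunit of the thymus, had 2, 6 and 0 counts in the controls and 1, 1 and 2 in the induced libraries. Both failed the count filter and were not tested, and 3 counts were taken as the limit that a count of 0 allows, for counting error only.

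**Figure D1:**
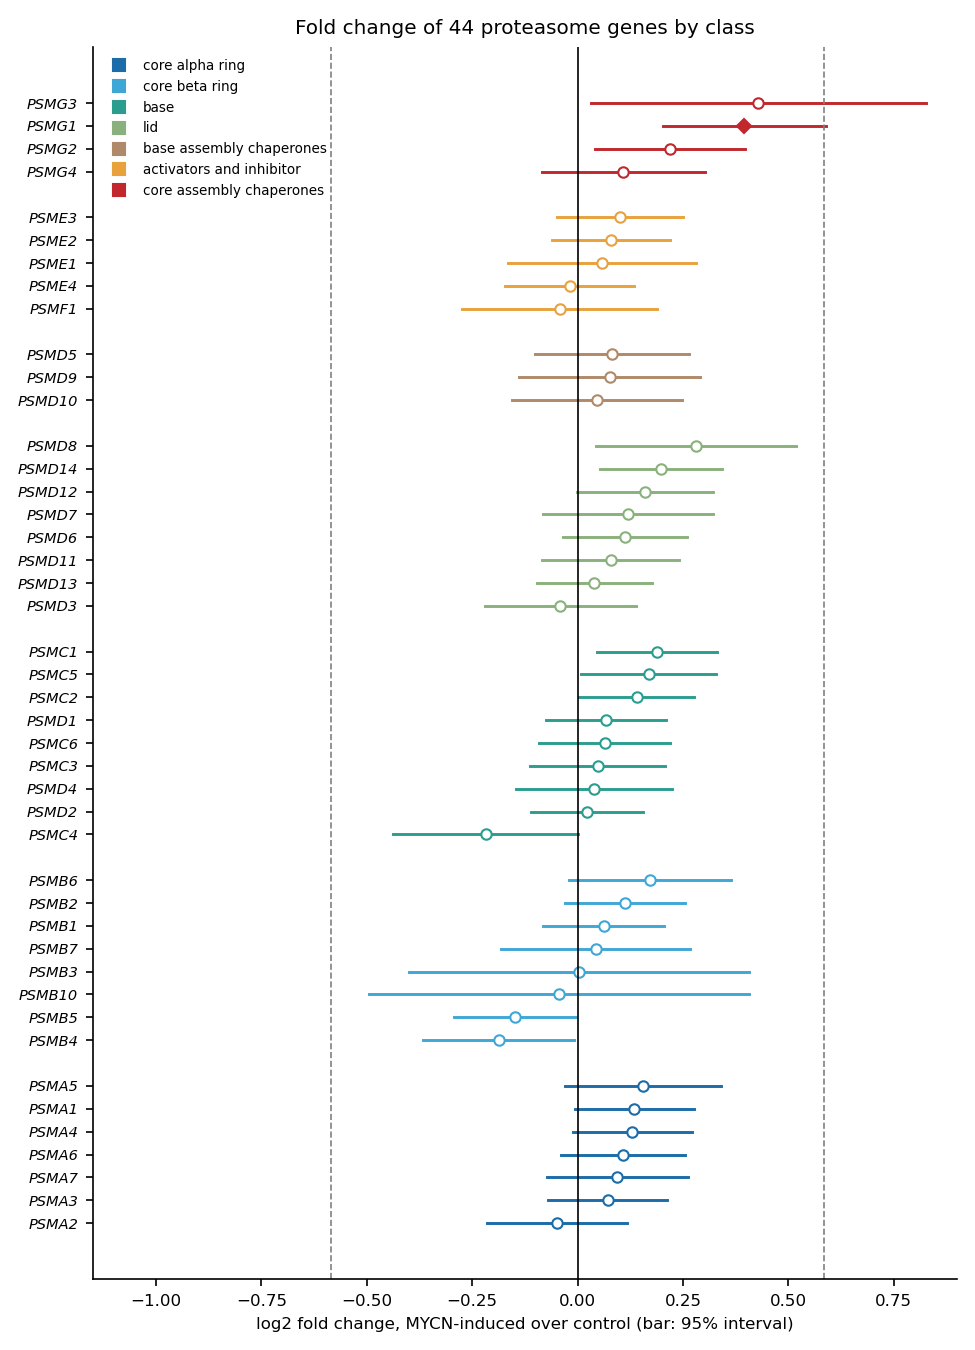
Log2 fold change of each of the 44 tested proteasome genes, MYCN-induced over control (n = 3 and 3), with its 95% interval as a bar; colours mark the class, the filled diamond marks an edgeR adjusted p under 0.05 and dashed lines mark 1.5-fold either way. 36 points lie right of 0, PSMG1 alone is filled, and the bars of PSMG1 and PSMG3 alone cross a dashed line.

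The core assembly chaperones stood highest. PSMG1 to PSMG4 code for factors that pair up and hold the alpha subunits while the ring closes, and none of them stays in the finished particle. All 4 lay above 0, with a median log2 fold change of 0.31, and in all 4 the induced libraries lay above the controls in CPM. In TPM only PSMG3 kept this. There MYCN-induced replicate 3 lay among the controls for PSMG1 (20.8 TPM) and below them for PSMG2 (17.4 TPM) and PSMG4 (2.225 TPM). Each stayed above 0 under every alternative setting and every left-out library, with the lowest value, 0.07, in PSMG4.

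PSMG1 (ENSG00000183527.12, chr21:39174769-39183488, minus strand, GRCh38) shares no exon base with another annotated gene, and no pseudogene of it was found by name. It was at 26.7, 25.8 and 26.0 CPM in the controls and at 34.4, 37.4 and 31.5 CPM in the MYCN-induced replicates. The controls lay within 1 CPM of each other and every induced library stood clear above them, replicate 2 the most and replicate 3 the least. The gene rose 1.32-fold (log2 fold change 0.40 ± 0.08 SE, adjusted p = 0.0475). The call was close to the threshold: adjusted p was 0.0094 without MYCN-induced replicate 3, and 0.101 without MYCN-induced replicate 2, 0.128 without MYCN-induced replicate 1, and 0.136, 0.244 and 0.180 without control replicates 1, 2 and 3. It was also lost when totals alone scaled the libraries (adjusted p = 0.121), with upper-quartile scaling (adjusted p = 0.0883) and with the replicate number as a block (adjusted p = 0.0747), while DESeq2 gave an adjusted p of 0.0022.

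PSMG2, the partner with which PSMG1 forms a heterodimer, was at 30.3, 31.2 and 31.0 CPM in the controls and at 35.4, 38.6 and 33.8 CPM in the induced replicates. The libraries stood in the same order among the induced as for PSMG1, again clear of the controls. The log2 fold change was 0.22 ± 0.08 SE and did not pass the test (adjusted p = 0.177). PSMG3 was at 16.3, 25.2 and 25.3 CPM in the controls and at 27.0, 30.01 and 32.9 CPM in the induced replicates. Control replicate 1 was far below the other controls, and the lowest induced library was close above the 2 others. Its log2 fold change of 0.43 ± 0.17 SE failed the test (adjusted p = 0.231). Without control replicate 1 it was 0.24 (adjusted p = 0.348), below the 0.405 of PSMG1 in the same fit. Without MYCN-induced replicate 3 it was 0.36, below the 0.46 of PSMG1. Its place as the largest value among the members was thus lost without either library. In control replicate 1 ADRM1 (19.4 CPM, against 32.1 and 39.9) and HSPB1 (66.7 CPM, against 122 and 124) were also lowest of the controls. PSMG4, the partner of PSMG3, was at 14.0, 14.7 and 14.9 CPM in the controls and at 14.9, 15.7 and 16.3 CPM in the induced replicates, where the groups met without overlap (log2 fold change 0.11 ± 0.08 SE, adjusted p = 0.550). PSMG4 shares 15% of its exon bases with SLC22A23 and TUBB2B, and PSMG2 9.71% with CEP76 and SPIRE1, all on the opposite strand.

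**Figure D2:**
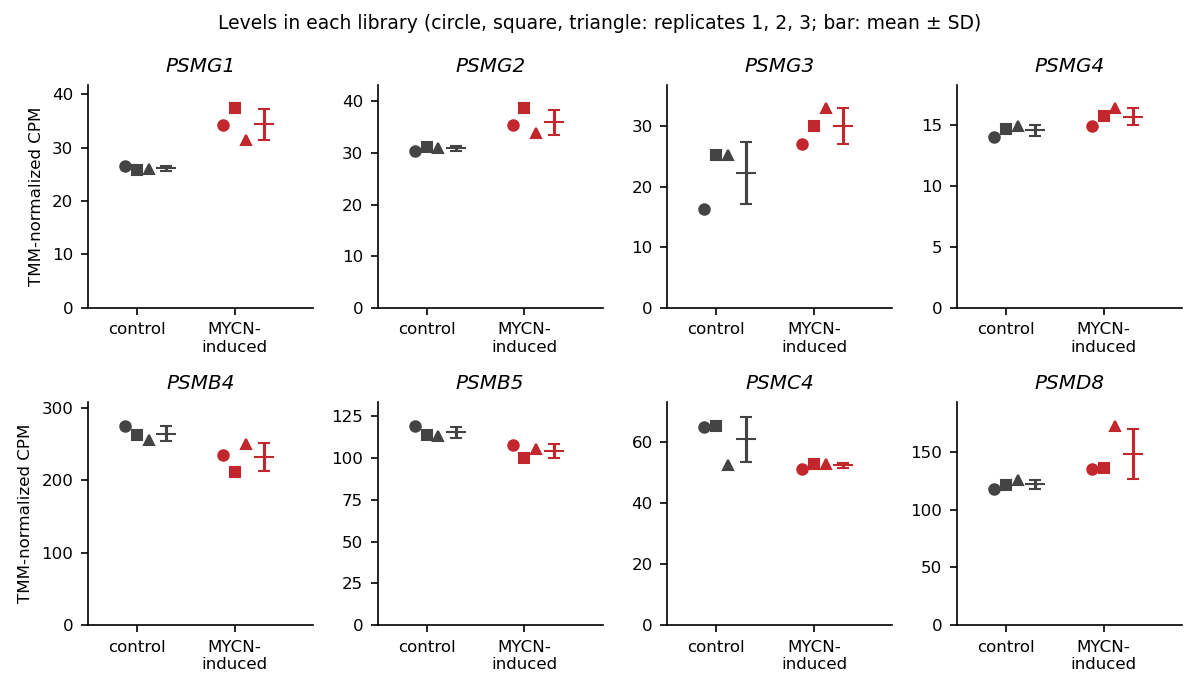
TMM-normalized CPM of 8 proteasome genes in each of the 6 libraries (circle, square and triangle for replicates 1, 2 and 3), with mean ± SD (n = 3) beside the points; axes start at 0. The 3 induced points of PSMG1 lie at 31.5 to 37.4 CPM above controls at 25.8 to 26.7 CPM, and PSMG3 has 1 low control at 16.3 CPM.

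The promoter of PSMG1 is shown because it belongs to the 1 member that passed the test. The RefSeq window (250 bases before to 50 after the start, GRCh38.p14) was cut to the 213 bases outside the annotated exon, chr21:39183489-39183701, read on the minus strand, with a CCAAT box and the core TGACNNNGC of the antioxidant response element in capitals. This core is the motif of NFE2L1 and NFE2L2, and starts 183 bases before the RefSeq start of PSMG1.
PSMG1: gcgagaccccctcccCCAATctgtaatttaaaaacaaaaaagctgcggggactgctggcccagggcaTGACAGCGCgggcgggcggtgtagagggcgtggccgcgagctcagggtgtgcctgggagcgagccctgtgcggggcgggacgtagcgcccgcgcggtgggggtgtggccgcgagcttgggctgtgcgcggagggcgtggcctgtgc

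Promoters of 40 of the 46 members were in the RefSeq table, those of PSMA7, PSMB1, PSMB6, PSMB7, PSMD4 and PSMG3 not being matched. TGACNNNGC was found on either strand in 12 of 40 (30%), against 14.3% of 15328 protein-coding promoters of the same length. It stood in both matched chaperones of the alpha ring dimer, PSMG1 and PSMG2, in PSME1, PSME2 and PSME4, and in none of the 7 alpha subunit promoters. Members with and without this motif were not compared. The sites of 6 members, all above 0, are shown with 10 bases on each side and the core in capitals, to let the free bases (N) and the flanks be compared. Those in PSMB3, PSMC4, PSMD1, PSMD3, PSMD9 and PSME4 are not shown. Of these, PSMC4, PSMD3 and PSME4 lay below 0 (log2 fold change -0.22, -0.04 and -0.02) and the rest above.
PSMG2, chr18:12658689-12658717, plus strand: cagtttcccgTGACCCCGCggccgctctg
PSME1, chr14:24136098-24136126, plus strand: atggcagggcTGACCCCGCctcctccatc
PSME2, chr14:24146767-24146795, minus strand: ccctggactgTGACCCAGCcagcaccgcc
PSMD12, chr17:67366724-67366752, minus strand: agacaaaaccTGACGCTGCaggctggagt
PSMD5, chr9:120843038-120843066, minus strand: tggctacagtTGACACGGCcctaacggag
PSMG1, chr21:39183616-39183644, minus strand: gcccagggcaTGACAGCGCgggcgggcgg

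The E-box CACGTG, the sequence that MYC family proteins bind best, was in 3 of 40 member promoters (7.5%) and in 8.89% of all protein-coding ones, and PSMG1 was not among the 3. They are shown because MYCN was the factor induced, with the E-box in capitals.
PSME3, chr17:42833345-42833370, plus strand: ctgcgcagcgCACGTGcacagcctcg
PSMD9, chr12:121888649-121888674, plus strand: accacaggcgCACGTGttccggcagg
PSMB3, chr17:38752493-38752518, plus strand: ttcaccagccCACGTGcgcgcaggct

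None of the 3 genes with the E-box passed the test. Their log2 fold changes were 0.0039 (PSMB3), 0.08 (PSMD9) and 0.10 (PSME3), so their median of 0.08 was the value of PSMD9. Without MYCN-induced replicate 3 they were 0.04, 0.0017 and 0.11. The median of the 35 tested members whose promoter lacked the motif was 0.08, in a range from -0.22 to 0.40. With only 3 genes on one side, a difference between the sets was not tested. CCAAT, the motif of the NFY complex, was in 18 of 40 (45%), against 36.6% of all protein-coding promoters. It was found in 5 of the 8 lid promoters and in 4 of the 6 matched beta subunit promoters. A match is a string of letters in this window and binding was not measured here.

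The lid, whose subunits form the scaffold around the deubiquitinase PSMD14, had 7 of 8 genes above 0 and a median log2 fold change of 0.12. In 4 of them, PSMD6, PSMD8, PSMD12 and PSMD14, the induced libraries lay above the controls, and none passed the test. PSMD8, a scaffold subunit, was at 118, 122 and 126 CPM in the controls and at 135, 136 and 173 CPM in the induced replicates. The groups did not overlap, and MYCN-induced replicate 3 stood far above the rest. The log2 fold change was 0.28 ± 0.10 SE (adjusted p = 0.197) and 0.16 without that library. PSMD14 was 1.15-fold higher (log2 fold change 0.20 ± 0.06 SE, adjusted p = 0.141). PSMD3, another scaffold subunit, was lowest in the class, at 90.5, 102 and 98.0 CPM in the controls and 96.3, 87.3 and 99.1 CPM in the induced replicates, where the groups overlapped (log2 fold change -0.04 ± 0.08 SE, adjusted p = 0.835).

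In the base, which holds the 6 ATPases PSMC1 to PSMC6 and the large subunits PSMD1, PSMD2 and the ubiquitin receptor PSMD4, 8 of 9 genes lay above 0, with a median of 0.06 and no call (0.10 without MYCN-induced replicate 3). PSMC1 was highest, at 73.0, 73.9 and 76.5 CPM in the controls and 82.0, 86.0 and 86.5 CPM in the induced replicates. The groups did not overlap (log2 fold change 0.19 ± 0.06 SE, adjusted p = 0.151). PSMC1 shares 76.2% of its exon bases with NRDE2 on the opposite strand, which the counting as described in the file header does not separate, and pseudogenes named after it held 29.5% as many counts as the gene, so its value is uncertain. With the pseudogene counts added its log2 fold change was 0.12 (adjusted p = 0.326), and it was then no longer the highest of the base. PSMC4 was lowest, at 64.8, 65.3 and 52.4 CPM in the controls and 51.3, 52.7 and 52.9 CPM in the induced replicates. Control replicate 3 lay with the induced libraries and the other 2 controls above them (log2 fold change -0.22 ± 0.09 SE, adjusted p = 0.269). PSMC2, PSMC5 and PSMD1 also had induced libraries wholly above the controls, with log2 fold changes of 0.14, 0.17 and 0.07.

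The base assembly chaperones PSMD5, PSMD9 and PSMD10, which guide the ATPases into their ring, had log2 fold changes of 0.08, 0.08 and 0.05, with overlapping groups in all 3. Without MYCN-induced replicate 3 they were 0.13, 0.0017 and 0.0030 and their median fell from 0.08 to 0.0030, so the values of PSMD9 and PSMD10 rested on that library. PSMD5 was at 53.9, 49.3 and 47.3 CPM in the controls and 53.2, 56.2 and 49.9 CPM in the induced replicates (adjusted p = 0.642). PSMD10 was at 15.0, 14.1 and 14.8 CPM and at 14.7, 14.6 and 16.2 CPM (adjusted p = 0.831), and 3 pseudogenes named after it held 52.5% as many counts as the gene. The difference between the core and the base chaperones was not tested.

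The core alpha ring had 6 of 7 tested genes above 0, a median of 0.11 and no call. In PSMA1, PSMA3, PSMA4 and PSMA6 the induced libraries lay above the controls. PSMA5 was highest in the class, at 65.2, 62.5 and 59.8 CPM in the controls and 68.5, 64.5 and 75.9 CPM in the induced replicates. Induced replicate 2 fell among the controls (log2 fold change 0.16 ± 0.08 SE, adjusted p = 0.352), and without MYCN-induced replicate 3 the value was 0.10, below the 0.16 of PSMA4. PSMA2 was lowest, at 55.6, 52.7 and 54.4 CPM in the controls and 55.9, 52.2 and 49.2 CPM in the induced replicates, with overlap (log2 fold change -0.05 ± 0.07 SE, adjusted p = 0.773).

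The core beta ring was the only class with members wholly below the controls, and its median was 0.02 over 8 tested genes. The sign of that median rested on 1 library: it was -0.0031 without MYCN-induced replicate 3, and 0.0090 to 0.06 without any other single library. PSMB4, a structural subunit, was at 275, 263 and 255 CPM in the controls and at 235, 212 and 250 CPM in the induced replicates. The induced libraries lay below, with replicate 3 just under the lowest control (log2 fold change -0.19 ± 0.08 SE, adjusted p = 0.248). PSMB5, which carries the chymotrypsin-like site that bortezomib blocks, was at 120, 114 and 114 CPM in the controls and at 108, 100.0 and 105 CPM in the induced replicates. All 3 induced libraries lay below the controls in CPM and close together, at 0.903-fold (log2 fold change -0.15 ± 0.06 SE, adjusted p = 0.258). In TPM the groups overlapped for PSMB5, at 133.5, 119.8 and 114.7 in the controls and 117, 118.4 and 96.59 in the induced replicates. PSMB4 stayed below the controls in TPM, by a small step (185.7 against 187.7 at the nearest). The log2 fold changes of PSMB4 and PSMB5 stayed below 0 under every alternative setting and every left-out library, and neither gene passed the test in any.

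The other catalytic subunits did not share that direction. PSMB6, with the caspase-like site, was at 39.7, 38.5 and 35.0 CPM in the controls and 44.4, 39.2 and 43.8 CPM in the induced replicates. Induced replicate 2 fell just under the highest control (log2 fold change 0.17 ± 0.08 SE, adjusted p = 0.323). PSMB7, with the trypsin-like site, was at 107, 110 and 111 CPM in the controls and 112, 98.0 and 128 CPM in the induced replicates. The induced libraries lay on both sides of the controls, replicate 3 the highest (log2 fold change 0.04 ± 0.10 SE, adjusted p = 0.865), and the value was -0.05 without that replicate. The adjusted p of both, as of PSMB5, stayed above 0.05 in every alternative.

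PSMB10 takes the place of PSMB7 in the immunoproteasome, the form induced by interferon. It was at 2.10, 2.89 and 3.42 CPM in the controls and 2.37, 2.69 and 3.07 CPM in the induced replicates, and all induced libraries lay inside the range of the controls (log2 fold change -0.04 ± 0.19 SE, adjusted p = 0.935). Of its exon bases 39.4% are shared with ENSG00000261884 on the same strand. Per exon length, PSMB10 was at 2.15%, 2.90% and 3.38% of PSMB7 in the controls and at 2.32%, 3.02% and 2.64% in the induced replicates. The ratio differed by -0.06 on the log2 scale (two-sided exact permutation p = 0.8, n = 3 and 3, where 0.1 is the smallest possible). Beside this, 1 of 9 tested genes of an interferon response list, GBP1, was called higher in edgeR (adjusted p = 0.0372, against 1.02% of all genes). That call was lost with the replicate block (adjusted p = 0.0694) and without each library other than MYCN-induced replicate 3 (adjusted p from 0.0746 to 0.170). DESeq2 called 2 of the list higher, and without MYCN-induced replicate 3 edgeR called GBP1 higher and STAT2 lower (adjusted p = 0.0256 and 0.0214).

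The activators, which open the gate of the core without ATP, and the inhibitor PSMF1 showed no call, with 3 of 5 above 0 and a median of 0.06, which was 0.03 without control replicate 1 and 0.03 without MYCN-induced replicate 2. PSME1 and PSME2, which form the PA28 ring, lay at 49.2, 53.7 and 57.1 CPM and at 42.1, 42.6 and 42.2 CPM in the controls. In the induced replicates PSME1 was at 52.2, 62.4 and 51.9 CPM, overlapping the controls (log2 fold change 0.06 ± 0.10 SE, adjusted p = 0.806). PSME2 was at 44.4, 44.5 and 45.2 CPM, all above the controls by a small step (0.08 ± 0.06 SE, adjusted p = 0.549). PSME3, the nuclear activator, was at 256, 251 and 242 CPM in the controls and 281, 254 and 270 CPM in the induced replicates (0.10 ± 0.06 SE, adjusted p = 0.467), with 1 induced library under the highest control. PSMF1 was at 81.1, 80.3 and 76.1 CPM in the controls and 72.2, 69.5 and 88.9 CPM in the induced replicates. Of these, 2 induced libraries lay below the controls and replicate 3 above them (-0.04 ± 0.10 SE, adjusted p = 0.870).

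**Figure D3:**
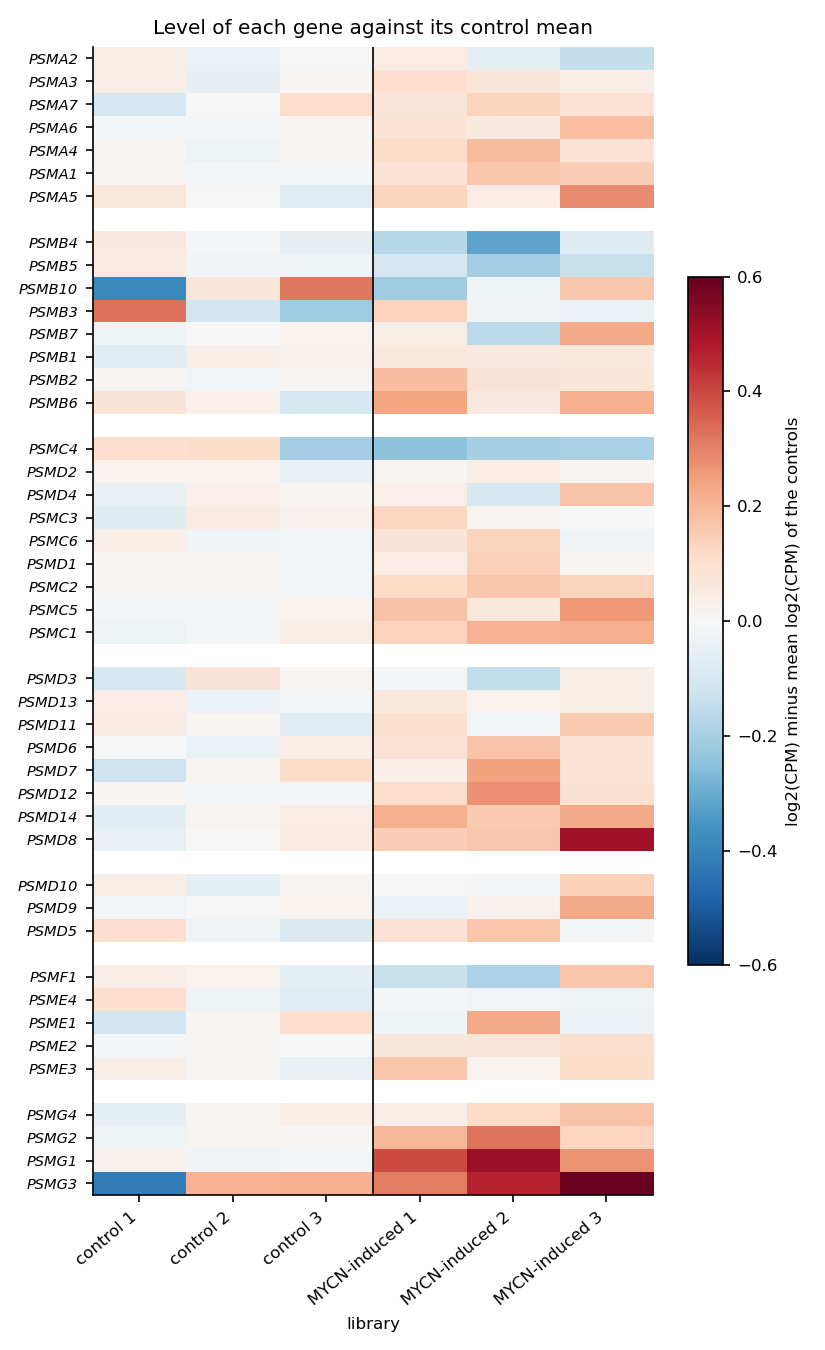
Log2(CPM) of the 44 tested proteasome genes in each library minus the mean of the 3 controls, from blue (lower) to red (higher), with rows grouped by class and a line between the controls and the MYCN-induced libraries. Most induced cells are pale red, the core assembly chaperones at the bottom are the strongest, and PSMB4 and PSMB5 are blue in all 3 induced libraries.

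In TMM-normalized CPM the lean of the members was seen in every induced library. It was not so in TPM. Summed over the 44 genes, TPM was 1824, 1726 and 1647 in control replicates 1, 2 and 3. In the MYCN-induced replicates the sum was 1832, 1954 and 1590, with replicate 3 the lowest of all libraries. The median log2 deviation of the 44 genes from the control mean was 0.0082, -0.0003 and 0.0084 in control replicates 1, 2 and 3 and 0.08, 0.06 and 0.09 in the MYCN-induced replicates. MYCN-induced replicate 1 was highest of the induced libraries in 11 members, replicate 2 in 14 and replicate 3 in 19. Without replicate 3, 35 of 44 members lay above 0, the median was 0.10 and 1 member was called higher and 0 lower, against 3.68% and 4.44% of the 28797 genes tested in that fit. The core assembly chaperones had a median deviation of 0.25, 0.39 and 0.22 in the induced replicates, and the beta ring 0.05, -0.03 and 0.07. Scaled by library totals alone, the median log2 fold change of the 44 genes was 0.04, below the value after TMM and still above 0.

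Genes of the integrated stress response, in which ATF4 raises amino acid synthesis, lay farther from the controls than the proteasome genes in the same induced libraries. Of 10 listed genes 9 were tested, ATF4 and PHGDH were called higher in edgeR (adjusted p = 0.0475 and 0.0482, against 1.02% of all genes), and the median log2 deviation was -0.04, 0.01 and 0.04 in the controls and 1.09, 0.44 and 3.05 in MYCN-induced replicates 1, 2 and 3. Both calls were lost when 1 of the 3 controls or MYCN-induced replicate 1 was left out (adjusted p from 0.0868 to 0.212). DESeq2 on all libraries called 5 of the 9 higher, against 3.11% of all genes. These were ATF4, PHGDH, CHAC1, ASNS and DDIT3 (DESeq2 adjusted p from 0.00032 to 0.0294). The stress genes were highest by far in replicate 3, where the proteasome genes were at 0.09. Without replicate 3, 5 of the stress genes were called higher and the list's median on the log2 scale was 0.72, against 3.68% of all genes called higher in that fit. Their part in the proteasome values was not tested. Of 6 tested heat shock genes, 0 were called in edgeR and 0 by DESeq2. At an unadjusted edgeR p under 0.05, 3 were higher and 0 lower, against 8.13% and 10.6% of all genes. Without MYCN-induced replicate 3, 1 was called higher in edgeR, against 3.68% of all genes in that fit.

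**Figure D4:**
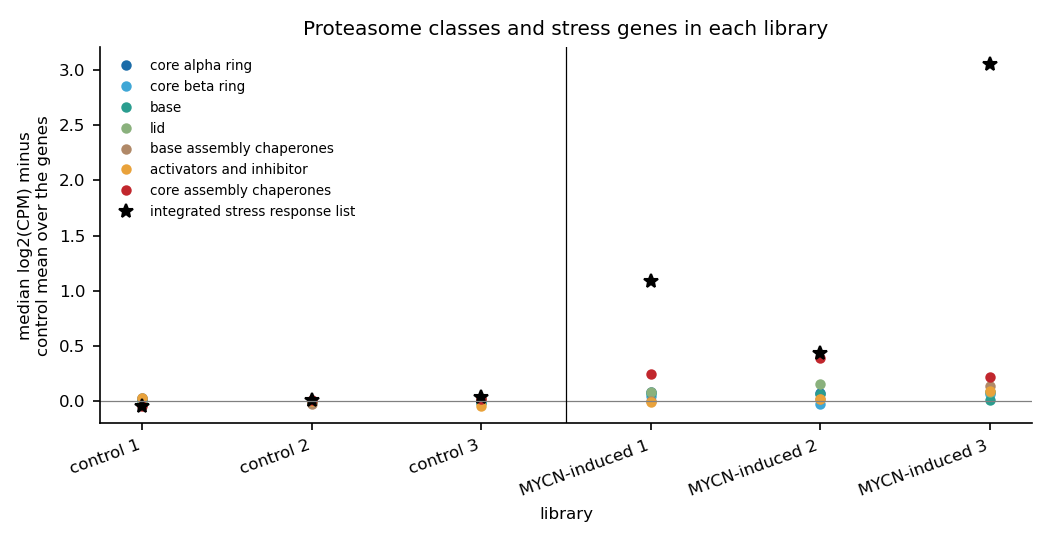
Median over the genes of each proteasome class, and over the integrated stress response list (stars), of log2(CPM) minus the control mean, in each of the 6 libraries. The stress list reaches 3.05 in MYCN-induced replicate 3, while every proteasome class stays between -0.03 and 0.39 in the induced libraries.

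The other genes of the pathway gave no call. Of 35 listed partner genes, all tested, 0 were called higher and 0 lower in edgeR or in DESeq2, 5 had an unadjusted edgeR p under 0.05 in the higher direction and 0 in the lower (8.13% and 10.6% of all genes), and the median log2 fold change was 0.11. Groups did not overlap in 13 (37.1%) in the higher direction and in 2 (5.71%) in the lower, against 11.5% and 14.7% of all genes. Among the 12 associated and assembly factors the induced libraries lay above the controls in 8, among them POMP, which matures the core, at 132, 124 and 127 CPM in the controls and 137, 143 and 140 CPM in the induced replicates (log2 fold change 0.13 ± 0.06 SE, adjusted p = 0.287). Of the 6 ubiquitin genes and E1 enzymes 2 lay above 0, with a median of -0.05. NFE2L1, the transcription factor of proteasome genes, was at 301, 317 and 313 CPM in the controls and at 296, 278 and 500 CPM in the induced replicates. It lay below the controls in 2 induced libraries and far above them in replicate 3 (log2 fold change 0.21 ± 0.20 SE, adjusted p = 0.650), and its value was -0.10 without that library.

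Levels per exon length differed more between the members than between the conditions. In the controls PSMB4 was highest at 204 ± 18.3 TPM (SD, n = 3), ahead of PSMB5 at 123 ± 9.69 TPM and PSMB7 at 100.4 ± 3.43 TPM. PSME3 led the activators at 79.7 ± 6.20 TPM and PSMD4 the base at 75.2 ± 2.52 TPM. At the low end stood PSMD9 at 3.56 ± 0.13 TPM, PSMB10 at 2.81 ± 0.53 TPM, PSMB3 at 2.47 ± 0.65 TPM and PSMG4 at 2.29 ± 0.04 TPM. Of the 43 steps from one member to the next in this order, 13 had control libraries that did not overlap and 30 did overlap. Compared within each library, the upper neighbour was higher in all 3 controls in 22 steps, and in the other 21 the order differed between controls. The length is that of all annotated exons merged, so genes with long or rarely used exons come out low.

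PSMB3 stood out in this order, since it is a constitutive beta subunit that every core needs in the same number as the others. It was at 2.17, 1.59 and 1.48 CPM in the controls and 1.90, 1.70 and 1.68 CPM in the induced replicates, with overlap (log2 fold change 0.0039 ± 0.17 SE, adjusted p = 0.995). The 6 other constitutive beta subunits lay between 42.9 and 204 TPM in the controls. The deposited counts are of unique alignments, so read pairs that also match another copy of a sequence are missing from them, and 2 pseudogenes named after PSMB3 are annotated. Whether this lowered PSMB3 was not tested, and its TPM is a count per length and not an estimate of how much of the subunit's RNA the cells hold.

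**Figure D5:**
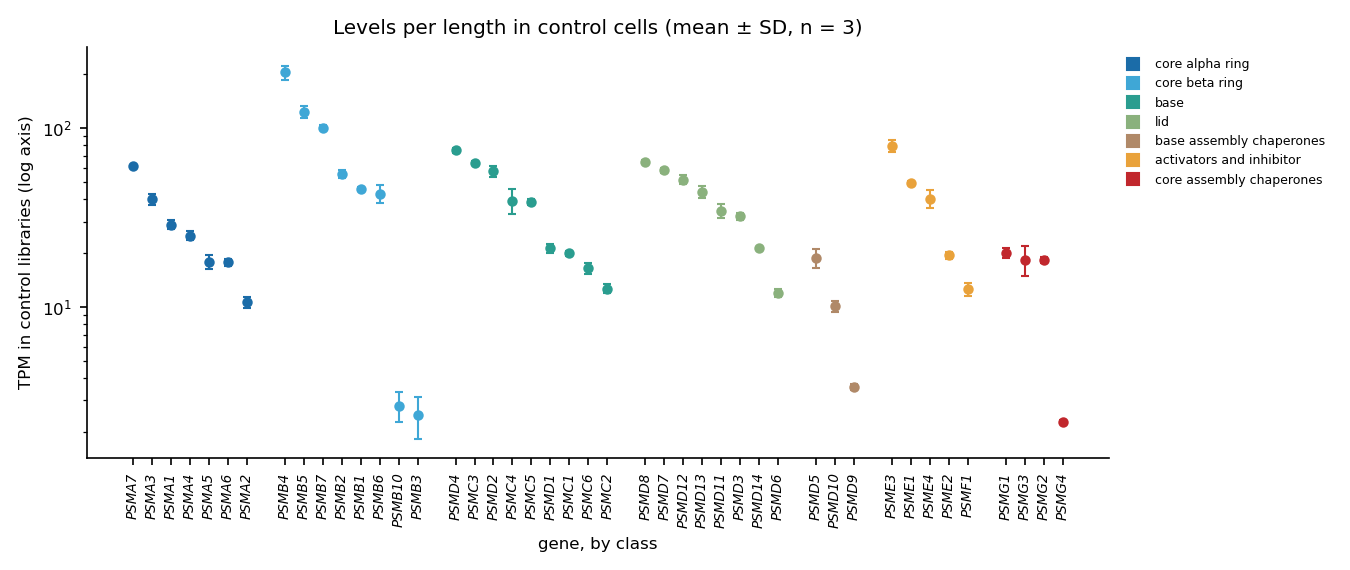
TPM of the 44 tested proteasome genes in the control libraries (mean ± SD, n = 3) on a log axis, ordered within each class and coloured by class. PSMB4, PSMB5 and PSMB7 lie at 100.4 to 204 TPM, and PSMB10, PSMB3 and PSMG4 lie under 3 TPM.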

How the data were processed

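RNA of 6 libraries, 3 control and 3 MYCN-induced, was analysed, grouped by the sample labels. The authors describe 3 independent experiments and deposited estimated counts of read pairs per gene, from unique STAR 2.7.1a alignments to GRCh38. Per the file headers featureCounts 1.6.4 counted exons, shared pairs between overlapping genes in fractions and set no strand option, whereas the submitters' processing notes name version 1.5.1 and the methods a strand option, so genes that overlap on opposite strands are uncertain. In 9 members over 10% of the exon bases are shared with another gene on either strand: PSMA1, PSMA2, PSMA6, PSMB10, PSMC1, PSMC5, PSMD7, PSMD9 and PSMG4. Names came from GENCODE 44 (99.65% of identifiers matched). The 92 spike-in rows held 0 counts.

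Estimated counts were rounded. A gene was tested if 3 or more libraries held 10 counts or more of it (29086 genes), in edgeR 4.0.16 (R 4.3.3), TMM normalization, the quasi-likelihood test and Benjamini-Hochberg adjustment over all of them, at a threshold of 0.05. SE is the log2 fold change over the square root of F. All replicates differed by more than sampling noise (chi-square per gene 12.3 to 151). At this depth the spread between cultures (biological coefficient of variation 0.153) sets the precision, except in genes with few counts. On simulated counts of 28667 genes, edgeR called 183 of 200 genes changed 2-fold and 8 unchanged genes. Only 2-fold changes at a fixed dispersion were simulated, so how often steps as small as those of the members are called was not measured. Alternatives were other normalizations, filters and thresholds, DESeq2 1.42.0, a replicate block, protein-coding genes only, a length correction, adding pseudogene counts and leaving out each library.

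Members and gene lists were chosen with earlier results of these data known. Values per library were given for members past the threshold, the highest and lowest log2 fold change of each class, PSMB5, PSMB6, PSMB7, PSMB10, PSME1, PSME2, members that failed the filter, NFE2L1 and MYCN. PSMG2, PSMD14, PSMB3, POMP, ADRM1 and HSPB1 were added after their values were seen. Motifs were searched on both strands.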

Additional observations from a re-analysis of the deposited data

How the results depend on the processing

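The count of members called higher, 1 in the analysis reported, was 0 with library size only, with upper-quartile normalization, with the replicate number as a block and at an adjusted p under 0.01, and ran from 0 to 1 when single libraries were left out. No member was called lower, and no partner gene was called in either direction, under the alternatives run (for the partner genes, all but the added pseudogene counts). The median log2 fold change of the members (0.079) stayed above 0 throughout: 0.045 with library size only, 0.048 with upper-quartile normalization, 0.096 with DESeq2, 0.094 without a count filter and 0.065 among protein-coding genes only, and it ran from 0.078 to 0.096 when single libraries were left out, highest without MYCN-induced replicate 3. The log2 ratio of PSMB10 to PSMB7 (-0.06) turned to 0.085 without control replicate 3 and to 0.034 without MYCN-induced replicate 1, in a range from -0.24 to 0.085. Libraries with the same replicate number deviated together only weakly (correlations of 0.216, -0.019 and 0.074), so the numbers were not taken as pairs.

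Values near 0 changed sign when 1 library was left out. NFE2L1 ran from -0.1049 without MYCN-induced replicate 3 to 0.36, PSMB7 from -0.0499 without the same library to 0.13, and PSMA2 from -0.0898 to 0.0025 without it. PSMB10 ran from -0.22 to 0.12 without control replicate 3 and was at 0.046 without MYCN-induced replicate 1. PSMD3 ran from -0.0922 to 0.0115 without MYCN-induced replicate 2. PSME1 ran from -0.0342 without that library to 0.11, and was at -0.0017 without control replicate 1. PSMF1 ran from -0.15 to 0.0251 without MYCN-induced replicate 2, and was at 0.0086 without MYCN-induced replicate 1. Each interval rests on the spread between 3 cultures a group. Counting error adds to it most in the tested members with the fewest counts, PSMB3 (123 to 227 per library) and PSMB10 (153.5 to 346.5).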
